A study of Mus musculus with 14 samples.

Results

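The genes described are the numbered zinc finger genes of mouse chromosomes 7, 13 and 17, that is every gene whose symbol is Zfp followed by a number and whose interval in the deposited expression tables lies on one of these chromosomes. There were 173 of them among 20626 genes, with 92 on chromosome 7, 35 on chromosome 13 and 46 on chromosome 17, and another 210 genes of the same name pattern lay on other chromosomes. Polyadenylated RNA and the histone mark H3K36me3 were measured in germ cells that had been sorted by Hoechst and propidium iodide staining from adult testes of the strain C57BL/6J. One cell type, here PD, was spermatocytes at the pachytene and diplotene stages of meiosis, and the other, here RS, was round spermatids, which are haploid. Both came from the genotypes WT (wild type) and Setd2KO (loss of Setd2), which gave 4 groups of 2 RNA-seq libraries and 1 H3K36me3 peak list per group. All groups share the strain, and the allele, the deleted exons and any Cre line behind Setd2KO are not given in the sources used here. Neither is it stated whether paired libraries were made from different mice, so p-values rest on a spread between libraries that may be technical.

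Depth worked back from the FPKM values was 50.8 to 84.9 megareads per library, at which 1 read per kilobase was worth 0.0118 to 0.0197 FPKM. The first PD WT library stood apart with a sum of 181915 FPKM over all genes against 219288 to 234791 in the other libraries. Counts by cluster, by WT peak cover, of genes high in spermatids and of heterochromatin genes come only from the fit of all 8 libraries. Counts of Setd2KO calls over all Zfp genes tested that rest on this library are given with and without it. Of 92 values of named genes, 83 kept their side of the threshold without it, 7 lost the call and 2 gained it. Setd2 itself had 21.2 and 19.1 FPKM in the WT spermatocyte libraries beside 21.0 and 21.4 with Setd2KO, and in spermatids 5.24 and 5.58 (WT) beside 12.1 and 8.67 (Setd2KO). A value for the whole gene does not check a deletion of part of it. The summed FPKM of 12 round spermatid markers was 245 and 255 in PD WT libraries, 291 and 205 in PD Setd2KO libraries, 4282 to 4331 for WT spermatids and 1766 to 1973 for Setd2KO spermatids. The summed FPKM of 8 Sertoli cell markers was at most 5.75 in WT and PD libraries and 11.3 to 12.9 in RS Setd2KO, and no marker of the somatic lists was at 0 in all libraries. In sorted bulk samples, fewer cells of a type and less RNA per cell cannot be told apart.

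Most genes of this name encode proteins with tandem C2H2 zinc fingers that bind DNA. Many also carry a KRAB domain, which recruits the corepressor Trim28 and through it the H3K9 methyltransferase Setdb1, and such proteins silence transposable elements and imprinted loci. KRAB zinc finger genes lie in clusters that arose by tandem duplication, so neighbours often resemble each other in promoter and protein. H3K36me3 is laid down over transcribed gene bodies by Setd2, which travels with elongating RNA polymerase II.

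In WT cells the 173 genes were mostly weakly expressed, with a median of 1.12 FPKM in PD and 0.72 FPKM in RS, against 0.479 and 0.665 FPKM over all genes. A mean of 1 FPKM or more was reached by 92 genes in PD WT, by 107 in PD Setd2KO, and by 77 in RS WT against 73 in RS Setd2KO. Only 7 reached 20 FPKM in PD WT and 5 in RS WT, and 9 stayed under 0.1 FPKM in all 4 groups. The highest was Zfp646, whose interval overlaps Prss53 on the opposite strand, at 60.4 and 75.9 FPKM in PD WT and 54.3 and 59.7 FPKM in RS WT. Next came Zfp110, whose product binds the neurotrophin receptor p75, at 53.0 and 63.0 FPKM in PD WT and 42.8 and 47.0 in RS WT. The libraries of these 2 genes overlapped in PD, so their order there is within the spread. Zfp318 followed in PD WT at 52.5 and 48.2 FPKM. Zfp541, which encodes a germ-cell chromatin protein needed to complete meiotic prophase, stood at 35.2 and 45.0 FPKM in PD WT and at 41.3 and 38.1 in RS WT. Zfp574 lay in the same range, at 34.5 and 42.6 FPKM in PD WT and 38.8 and 42.0 in RS WT. The 6 highest genes were completed by Zfp367 in PD, at 21.7 and 28.4 FPKM, and by Zfp13 and Zfp759 in RS, the former at 24.3 and 20.1 FPKM.

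**Figure D1:**
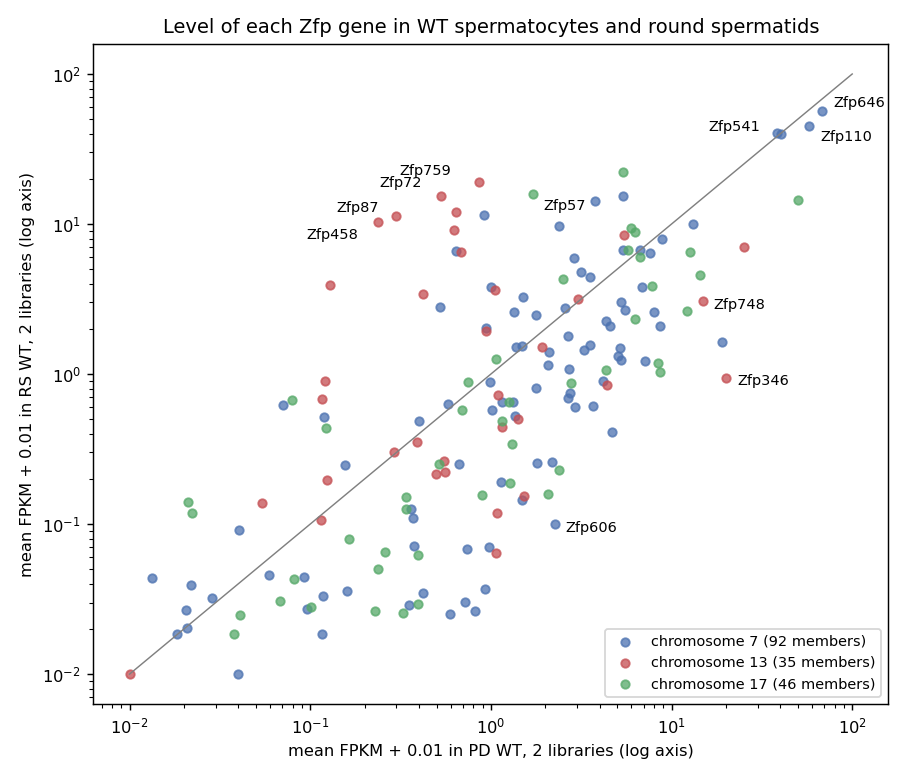
Mean FPKM plus 0.01 of the 173 Zfp genes in PD WT (x axis) and RS WT (y axis), both on log axes, each point 1 gene coloured by chromosome and the line marking equal levels. Most points lie below the line, and Zfp759, Zfp72, Zfp87 and Zfp458 of chromosome 13 lie far above it.

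Of the 173 genes, 115 reached a mean of 1 FPKM in at least 1 group and were tested. From PD to RS in WT, 66 of them fell (57.4%) and 31 rose (27%) at adjusted p under 0.05 in limma, beside 46.7% and 36% of the 11452 genes tested, of which 82.7% were called in either direction. The median log2 change of the 115 was -0.41 against -0.21 over all genes tested. The 144 tested Zfp genes of other chromosomes had a lower median of -0.67, with 86 called lower and 40 higher. In Setd2KO cells the same step gave 70 lower and 22 higher, beside 48.5% and 34.2% of all genes and 82.7% called in either direction. With upper-quartile scaling the split was 59 lower and 38 higher in WT and 62 lower and 40 higher in Setd2KO. The 2 genotypes share no library, and 63 genes fell in both, which is 63 of 66 in WT and 63 of 70 in Setd2KO, while 21 rose in both. The same overlap over all genes tested was not counted, so these shares are a description and no trait of the Zfp genes. Changes between cell types below are log2 differences relative to the all-gene median, which was -0.27 in Setd2KO.

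The genes that fell were led by Zfp346, which encodes a protein that binds double-stranded RNA. It read 19.0 and 21.1 FPKM in PD WT and 0.858 and 1.00 in RS WT, a relative log2 change of -3.23 ± 0.12 (SE, adjusted p = 2e-09). The groups did not overlap, as was so for 89.6% of all genes tested and as the rule for the largest changes required. The Setd2KO libraries repeated the pattern with 19.0 and 21.2 FPKM in PD and 1.17 and 1.13 in RS. Zfp382 went from 19.5 and 18.6 FPKM to 1.51 and 1.76 (relative log2 change -2.71 ± 0.12, adjusted p = 3.4e-09). Zfp955a, a near copy of Zfp955b whose reads may be shared, then Zfp936, Zfp820 and Zfp748 followed, with relative log2 changes of -2.02, -1.81, -1.78 and -1.74. Zfp820 was uneven among the PD WT libraries, with 12.3 FPKM in the first and 4.59 in the second, both above the RS WT values of 1.33 and 1.01.

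The genes that rose were led by 4 genes of 1 cluster on chromosome 13 and by Zfp72, which lies apart from them on the same chromosome. Zfp759 read 0.663 and 1.03 FPKM in PD WT and 18.5 and 19.4 in RS WT, a relative log2 change of 3.65 ± 0.17 (adjusted p = 5.7e-09). Zfp72 read 0.372 and 0.665 FPKM against 16.1 and 14.5 (3.65 ± 0.21, adjusted p = 3.2e-08). For each of these genes both RS libraries exceeded both PD libraries by an order of magnitude. Zfp87, Zfp458 and Zfp58 had relative log2 changes of 3.48, 3.40 and 3.22, and all 3 were under 1 FPKM in both PD WT libraries and above 9 FPKM in both RS WT libraries. Zfp819, a chromosome 7 gene whose KRAB protein binds Trim28, rose from 0.640 and 1.18 FPKM to 11.7 and 11.3. Zfp57 of chromosome 17, which keeps DNA methylation at imprinting control regions, rose from 1.40 and 1.99 FPKM to 16.8 and 15.1 (2.87 ± 0.15, adjusted p = 1.9e-08).

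The changes were also counted by position. Genes separated by gaps of at most 500 kb formed 12 clusters of at least 4 members, which together held 138 of the 173. The largest by member number on chromosome 13 held 23 genes within chr13:67139530-67927937 (build mm9, as in the deposited tables). Of its 16 tested genes, 9 rose from PD to RS in WT and 6 fell, with a median relative log2 change of 1.10, where 36% of all genes tested rose and 46.7% fell. In the cluster of 15 genes at chr7:30553571-30954746, all 8 tested genes fell in WT and all 8 fell in Setd2KO, with median relative changes of -0.89 and -0.91, among them Zfp382 and Zfp568. In the cluster of 9 genes at chr7:28474359-29164247, all 9 were tested, 6 rose in WT and 2 fell. Of the 27 tested genes on the whole of chromosome 17, 17 fell and 5 rose. These counts describe neighbours that share ancestry, so the genes of a cluster are not independent of each other.

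Within the chromosome 13 cluster, genes that lie near each other could have opposite courses. Zfp58, at chr13:67591103-67601458, rose from 0.481 and 0.787 FPKM in PD WT to 12.6 and 11.6 in RS WT. Zfp748, at chr13:67639577-67654088 with only Zfp87 of this family between them, fell from 12.4 and 17.3 FPKM to 3.27 and 2.82. In PD WT Zfp748 was by far the higher of this pair, and in RS WT Zfp58 was. Levels also differed widely among genes of the cluster. Zfp457, chosen for its promoter after its values were seen and too low to be tested, read 0.129 and 0.0914 FPKM in PD WT and 0.957 and 0.818 in RS WT, far below Zfp759.

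**Figure D2:**
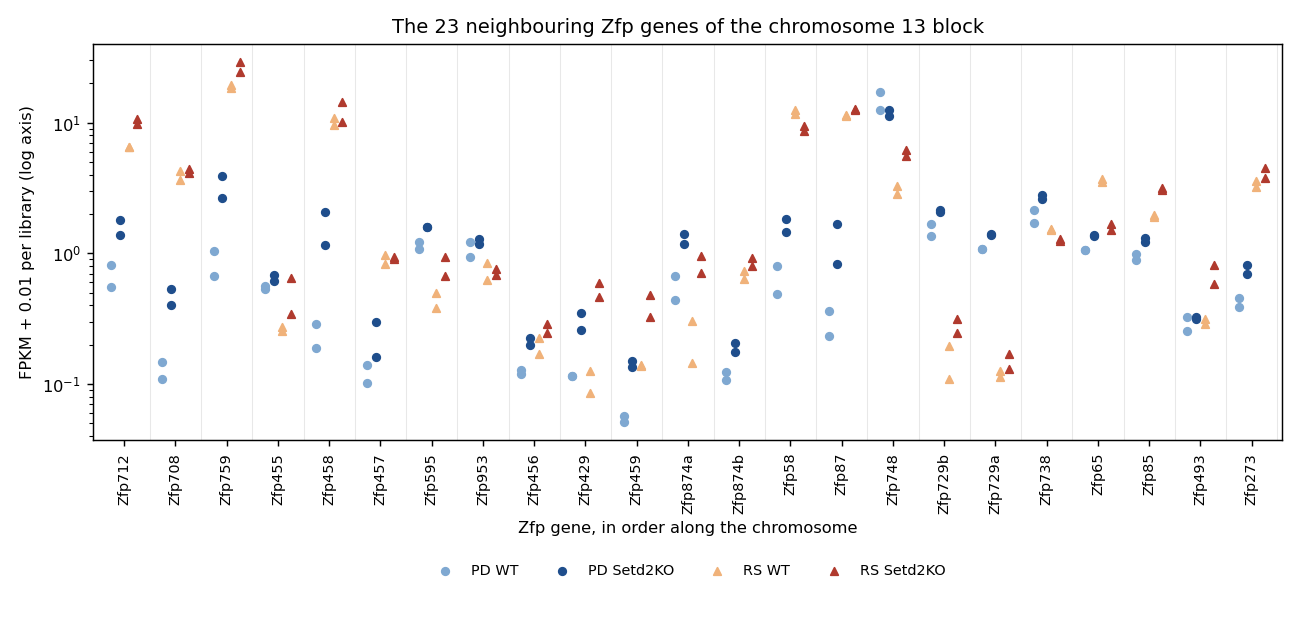
FPKM plus 0.01 on a log axis in each library for the 23 Zfp genes of the chromosome 13 cluster, in order along the chromosome, with circles for PD and triangles for RS, light for WT and dark for Setd2KO. Zfp759, Zfp458, Zfp58 and Zfp87 are near or above 10 FPKM in RS and low in PD WT, while Zfp748 is highest in PD.

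The promoters of Zfp759, Zfp457, Zfp58 and Zfp748 are shown because they pair genes of the cluster that have similar promoters with unlike levels or opposite courses. Each is the 300 bases from 250 before to 50 after the gene start in the RefSeq table of build GRCm38.p6, printed 5′ to 3′ on the strand of the gene. The windows are chr13:67127978-67128277 on the plus strand for Zfp759, and on the minus strand chr13:67306363-67306662 for Zfp457, chr13:67500473-67500772 for Zfp58 and chr13:67553103-67553402 for Zfp748. Capitals mark the letters CCGGAAG, the core that ETS factors bind, TGACGTCA, the cyclic AMP response element, and GGGAA, any base and TGTAGT, which is ACTACA, any base and TTCCC read on the other strand. The last is here called the ACTACA element and is part of the element bound by human ZNF143, whose mouse counterpart Zfp143 is itself among the 173 genes.
Zfp759: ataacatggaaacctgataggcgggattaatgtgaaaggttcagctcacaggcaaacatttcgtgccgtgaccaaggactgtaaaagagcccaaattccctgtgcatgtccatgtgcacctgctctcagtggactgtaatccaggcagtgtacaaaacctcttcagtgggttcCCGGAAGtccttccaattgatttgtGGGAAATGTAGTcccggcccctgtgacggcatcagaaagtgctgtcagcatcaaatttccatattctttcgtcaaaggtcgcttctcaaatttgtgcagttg
Zfp457: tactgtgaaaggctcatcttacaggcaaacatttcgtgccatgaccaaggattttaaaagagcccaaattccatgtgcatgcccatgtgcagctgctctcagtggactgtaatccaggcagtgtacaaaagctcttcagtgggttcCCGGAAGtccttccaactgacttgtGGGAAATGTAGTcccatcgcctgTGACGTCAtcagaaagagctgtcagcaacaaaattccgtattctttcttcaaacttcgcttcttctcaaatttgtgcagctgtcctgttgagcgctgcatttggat
Zfp58: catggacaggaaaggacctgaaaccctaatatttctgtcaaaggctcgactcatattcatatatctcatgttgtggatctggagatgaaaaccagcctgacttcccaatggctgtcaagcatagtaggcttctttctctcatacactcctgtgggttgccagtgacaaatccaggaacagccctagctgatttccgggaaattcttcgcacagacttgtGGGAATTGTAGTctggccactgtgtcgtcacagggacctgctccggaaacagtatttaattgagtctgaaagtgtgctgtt
Zfp748: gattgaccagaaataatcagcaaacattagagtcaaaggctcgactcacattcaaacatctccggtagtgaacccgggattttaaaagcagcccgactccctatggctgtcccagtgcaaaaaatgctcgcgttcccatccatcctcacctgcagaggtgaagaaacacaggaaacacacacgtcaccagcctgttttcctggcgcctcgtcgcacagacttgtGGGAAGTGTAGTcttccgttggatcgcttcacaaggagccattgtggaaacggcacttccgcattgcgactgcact

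The Zfp759 and Zfp457 windows were 76.2% identical after alignment and the Zfp58 and Zfp748 windows 63.9%, against a median of 53.0% over the 190 pairs of 20 promoters of the cluster. A promoter was found for 154 of the 173 genes. Searched on both strands, the ACTACA element stood in 35 of these (22.7%), beside 1.03% of all 27025 promoters of the table and 6.22% of the 177 promoters of Zfp genes on other chromosomes. It stood in 14 of the 20 promoters of the chromosome 13 cluster (70%), in 20 of 84 on chromosome 7 (23.8%) and in 0 of 41 on chromosome 17. In 31 of 38 matches the letters lay on the strand opposite to the gene, and the median first base lay 55.5 bases before the gene start. Both courses carried it, since in the chromosome 13 cluster it stood in 6 of 8 promoters of genes that rose from PD to RS and in 5 of 5 that fell. In the same promoters CCGGAAG stood in 4 of 8 and 0 of 5, and TGACGTCA in 0 of 8 and 3 of 5. These small counts were not tested. CCGGAAG stood in 20.8% of the 154 promoters, 9.12% of all and 21.5% of the 177 of Zfp genes on other chromosomes. For TGACGTCA these shares were 5.19%, 1.88% and 1.70%. No match of the ACTACA element shared a base with one of CCGGAAG. The 3 motifs were chosen after the promoters were read, and a match is a description of letters, not of binding.

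In Setd2KO round spermatids 30 of the 115 tested genes fell (26.1%) and 18 rose (15.7%), beside 21.8% lower, 20.9% higher and 42.7% called in either direction over all genes tested. The median log2 change was -0.01 against 0.02 over all genes. Largest changes were taken among genes of at least 2 FPKM in the higher group whose groups did not overlap. The largest falls were those of Zfp81, Zfp607a and Zfp428, and the largest rises those of Zfp180, Zfp748 and Zfp367. With upper-quartile scaling the split was 24 lower and 31 higher. Without the first RS WT library 15 were lower and 9 higher, and without the first RS Setd2KO library 17 and 10. In the same libraries the spermatid marker sum was lower and the Sertoli marker sum higher in Setd2KO. Only 2 of the 8 Sertoli markers reached a mean of 1 FPKM in any group. The sum of 12 spermatocyte markers was 709 and 750 FPKM in RS WT against 972 and 955 in RS Setd2KO. That of 6 macrophage markers overlapped between genotypes, at 2.27 and 4.17 against 4.15 and 3.21. The summed FPKM of 5 peritubular myoid markers was 2.18 and 3.29 in RS WT against 10.7 and 9.68 in RS Setd2KO, and that of 6 Leydig markers was 9.28 and 4.79 against 10.0 and 14.2. The part of such shifts in these results was not tested.

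Zfp81 of chromosome 17 read 4.52 and 4.10 FPKM in RS WT against 0.581 and 0.908 in RS Setd2KO, from 865, 469, 76 and 135 recovered reads. Both Setd2KO values lay below both WT values, as the rule for the largest changes required, and 78.1% of all genes tested had groups that did not overlap. The log2 change was -1.61 ± 0.13 (SE, adjusted p = 6.7e-06). Zfp607a, at chr7:28645604-28665844, read 3.92 and 3.70 FPKM in WT and 1.12 and 1.20 in Setd2KO (-1.16 ± 0.09, adjusted p = 5.6e-06). Its group values did not overlap either, and in PD the same gene was near 1 FPKM in all 4 libraries. Zfp428 read 15.1 and 13.2 FPKM against 5.41 and 7.68 (-1.01 ± 0.17, adjusted p = 0.0007). Zfp689, Zfp850, Zfp629 and Zfp65 had log2 changes of -0.92, -0.83, -0.84 and -0.83.

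Zfp296, whose product binds the reprogramming factor Klf4, fell in both cell types from a low level. It read 1.14 and 1.90 FPKM in RS WT against 0.101 and 0.168 in RS Setd2KO, from 148, 148, 9 and 17 recovered reads (-1.14 ± 0.12, adjusted p = 4.4e-05). In PD it read 1.495 and 1.44 FPKM in WT and 0.232 and 0.282 in Setd2KO, a relative log2 change of -1.17 (adjusted p = 0.0004). All 4 Setd2KO libraries lay below all 4 WT libraries. The pseudocount of 1 FPKM makes these log2 changes smaller than the ratio of the values.

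Among the genes that rose, Zfp180 read 1.17 and 1.24 FPKM in RS WT against 3.76 and 3.03 in RS Setd2KO (0.99 ± 0.13, adjusted p = 0.00019). Zfp748 read 3.27 and 2.82 FPKM against 6.17 and 5.52 (0.76 ± 0.15, adjusted p = 0.0026). Zfp367 read 6.81 and 7.16 FPKM against 13.2 and 11.4 (0.73 ± 0.15, adjusted p = 0.0026). These 3 genes were higher in PD WT than in RS WT, and their RS Setd2KO values lay between the 2. Zfp128, Zfp719 and Zfp955b rose by 0.70, 0.61 and 0.61, and the call for Zfp955b was lost without the first RS WT library (adjusted p = 0.063) or the first RS Setd2KO library (adjusted p = 0.051).

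**Figure D3:**
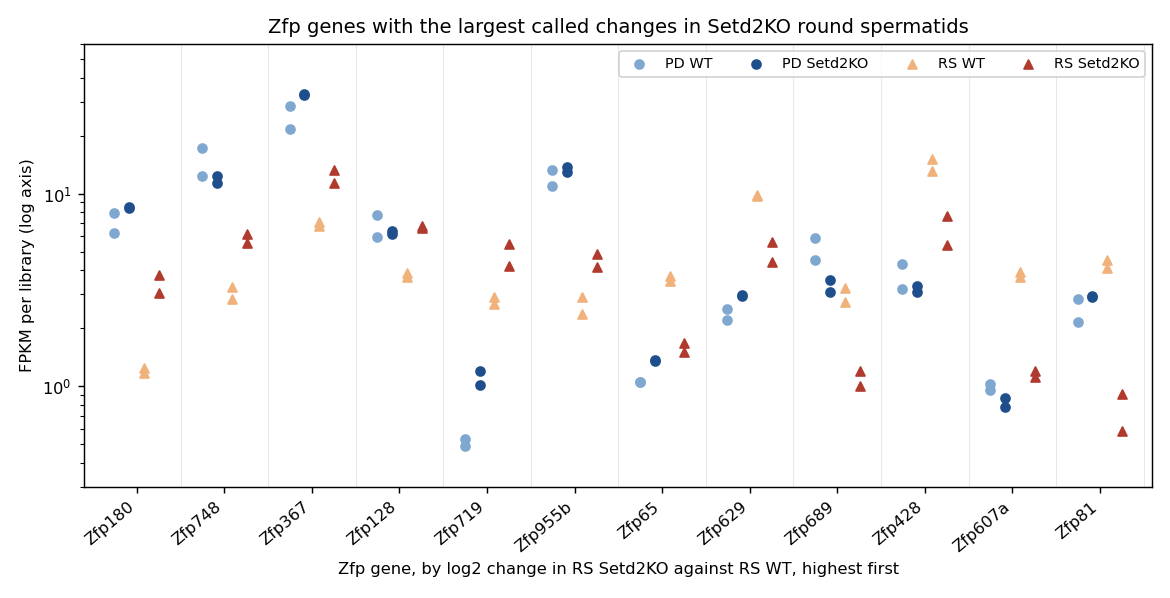
FPKM on a log axis in each library for the 12 Zfp genes with the largest called changes between RS Setd2KO and RS WT among those of at least 2 FPKM in the higher group, ordered from the largest rise to the largest fall, with circles for PD, triangles for RS, light for WT and dark for Setd2KO. In RS the 2 Setd2KO values lie apart from the 2 WT values for all 12 genes, because the rule that picked them required it.

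The chromosome 7 cluster at chr7:28474359-29164247 held 6 of the 30 genes that fell in RS Setd2KO, namely Zfp60, Zfp607a, Zfp607b, Zfp780b, Zfp850 and Zfp974, out of 9 tested, and the 2 genes Zfp36 and Zfp59 rose there. Zfp36 reached the mean of 1 FPKM needed for testing only in RS Setd2KO, where it is high, so its rise is a description. The median log2 change of the cluster was -0.43. Over all genes tested 21.8% fell and 20.9% rose. In the chromosome 13 cluster 6 of 16 tested genes rose and 2 fell, with Zfp58 and Zfp65 lower. None of the 8 tested genes of the cluster at chr7:30553571-30954746 rose, and 2 fell.

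In PD, the Setd2KO libraries held 32 of the 115 tested genes at a higher level (27.8%) and 11 at a lower level (9.57%), beside 29.8% and 6.3% of all genes tested. The all-gene median log2 change was 0.19, the median of the 115 was 0.17, and changes in PD are given relative to the former. After quantile normalization, which removes that shift, 5 were higher and 26 lower. Without the first PD WT library 20 were higher and 17 lower, without the second 38 and 6, without the first PD Setd2KO library 25 and 6, and without the second 17 and 7. The summed FPKM of 8 spermatogonia markers was 6.83 and 7.37 in PD WT against 12.8 and 17.9 in PD Setd2KO, and its part in these results was not tested.

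The largest rises in PD were those of Zfp759 and Zfp72, both high in spermatids. Zfp759 read 0.663 and 1.03 FPKM in PD WT and 3.90 and 2.64 in PD Setd2KO (relative log2 change 1.01 ± 0.17, adjusted p = 0.00062). Zfp72 read 0.372 and 0.665 FPKM against 3.13 and 1.43 (0.88 ± 0.21, adjusted p = 0.0032). In both genes the Setd2KO libraries lay above the WT libraries, as the rule for the largest changes required, and the first Setd2KO library was the higher. Groups did not overlap for 71.2% of all genes tested. Of 10 genes at 5 FPKM or more in RS WT and at least 5-fold lower in PD WT, 9 were called higher in PD Setd2KO, all but Zfp941. The rule uses the PD WT values that the contrast also uses, so this count is a description, and of 1267 other tested genes that meet it 69.7% were called higher. As a percentage of the RS mean for the matching genotype, the median PD level of these 10 was 4.78% and 6.94% in the WT libraries and 17.4% and 13.5% in the Setd2KO libraries. A set of 517 genes stood at 20 FPKM or more in RS WT and at least 20-fold lower in PD WT. Over these the same percentage was 1.92% and 2.77% in PD WT and 13.1% and 7.67% in PD Setd2KO. Both rules hold the PD WT percentages low but not those of PD Setd2KO, so the difference between genotypes is a description. The RS level that divides these values differs between genotypes. The summed FPKM of 12 round spermatid markers was 4331 and 4282 in RS WT against 1766 and 1973 in RS Setd2KO. In PD the same sum was 245 and 255 in WT against 291 and 205 in Setd2KO. What sets the share was not tested. When that share of the RS level was subtracted from each PD library, the counts became 13 higher and 13 lower, and Zfp759, Zfp72 and Zfp819 were no longer called (adjusted p = 0.67, 0.51 and 0.22). The chromosome 13 cluster had 12 of 16 tested genes higher and 0 lower in PD Setd2KO, beside 29.8% and 6.3% of all genes tested. It holds 5 of those 10 genes. Zfp57 read 3.21 and 3.14 FPKM in PD Setd2KO, above both WT values, and its call (adjusted p = 0.0085) was lost without the first PD WT library (adjusted p = 0.063) and under quantile normalization (adjusted p = 0.072). After the subtraction its log2 change turned to -0.14 on the deposited scale (adjusted p = 0.7).

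Zfp771 and Zfp143 also rose in PD. Zfp771 read 3.45 and 4.92 FPKM in PD WT and 7.35 and 7.86 in PD Setd2KO, with no more than 1.15 FPKM in any RS library (relative log2 change 0.55 ± 0.14, adjusted p = 0.0021). Zfp143 read 2.56 and 2.58 FPKM against 3.90 and 4.07 (0.29 ± 0.12, adjusted p = 0.009), and its call was lost under quantile normalization (adjusted p = 0.14). All 5 tested genes of the cluster at chr7:49728756-50873649 rose, where 29.8% of all genes tested did. They are Zfp141, Zfp715, Zfp719, Zfp819 and Zfp936, of which Zfp819 is among the 10 spermatid-high genes. Counts by cluster were not repeated after quantile normalization. Without the first PD WT library the calls for Zfp759, Zfp72, Zfp819, Zfp771 and Zfp143 held, with adjusted p from 0.012 for Zfp759 to 0.049 for Zfp72.

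Beside Zfp296, the falls in PD were led by Zfp61, which read 6.96 and 8.95 FPKM in WT and 4.04 and 4.35 in Setd2KO (relative log2 change -0.97 ± 0.14, adjusted p = 0.0021). Zfp607b read 2.86 and 3.40 FPKM against 1.86 and 1.62 (-0.78 ± 0.12, adjusted p = 0.0043). Both also fell in RS. Zfp689, Zfp94, Zfp788 and Zfp784 had relative log2 changes of -0.71, -0.61, -0.60 and -0.54. Each of these 4 calls was lost when 1 library was left out, with adjusted p = 0.064, 0.063, 0.078 and 0.065 without the second PD WT library. Of the 11 genes lower in PD, 7 were also lower in RS, which is 7 of 30 there, and 8 of the 32 higher in PD were among the 18 higher in RS. This overlap too was not counted over all genes tested.

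The Setd2KO effect itself differed between RS and PD for 34 of the 115 genes, with 30 lower in RS (26.1%) and 4 higher (3.48%), beside 27.3% and 7.76% of all genes tested. Relative to the all-gene median of -0.16, Zfp81 had a difference of -1.63 ± 0.18 (adjusted p = 0.00015). Its 4 PD libraries ran from 2.15 to 2.95 FPKM, with no gap like that in RS. Zfp748 had the largest difference upward, 1.20 ± 0.22 (adjusted p = 0.0041), with 12.4 and 17.3 FPKM in PD WT and 11.3 and 12.4 in PD Setd2KO. After quantile normalization the split was 12 lower and 18 higher, and with upper-quartile scaling 24 and 13. Without the first RS WT library 18 were lower and 3 higher, and without the first PD WT library 23 and 11.

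Other genes of known function gave mixed results. Zfp568, which represses a placental Igf2 transcript, read 1.03 and 1.21 FPKM in PD WT against 1.65 and 1.87 in PD Setd2KO, with at most 0.20 in any RS library, and it rose in PD Setd2KO (relative log2 change 0.19 ± 0.08, adjusted p = 0.0053). That call was lost under quantile normalization (adjusted p = 0.5) and in a fit of only the PD libraries (adjusted p = 0.0502). Zfp628, a transcription factor required for spermiogenesis, was not called in either cell type (adjusted p = 0.96 in PD and 0.27 in RS), with 1.13 to 2.44 FPKM over all 8 libraries. Zfp541 read 35.2 and 45.0 FPKM in PD WT against 30.7 and 30.2 in PD Setd2KO, with adjusted p = 0.068, and was called without the first PD WT library (adjusted p = 0.012). Zfp598, whose product ubiquitinates collided ribosomes, fell in RS from 7.30 and 5.79 FPKM to 3.83 and 4.25 (-0.58 ± 0.14, adjusted p = 0.0084). That call was lost without the first RS WT library (adjusted p = 0.099) or the first RS Setd2KO library (adjusted p = 0.065).

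Zfp36 encodes tristetraprolin, which binds AU-rich mRNA and is no C2H2 protein. In spermatocytes it read 0.0554 and 0.0657 FPKM for WT against 0.320 and 0.710 for Setd2KO, in spermatids 0.680 and 0.546 against 1.44 and 1.13. It was called higher in both cell types (adjusted p = 0.0078 and 0.0059). Only the RS Setd2KO mean reached the 1 FPKM needed for testing, so the gene was admitted by the group where it is high and its rise in RS is a description. The calls were lost without the first PD WT library or the second PD Setd2KO library in PD (adjusted p = 0.06 and 0.057) and without the second RS WT library in RS (adjusted p = 0.053). Zfp318, which controls IgD splicing in B cells, fell from 52.5 and 48.2 FPKM in PD WT to 13.1 and 15.6 in RS WT and was higher in RS Setd2KO at 20.6 and 18.5 (adjusted p = 0.03). Without the first RS WT library that adjusted p was 0.22, and without the first RS Setd2KO library 0.19. Zfp473, whose human counterpart acts in histone mRNA processing, and Zfp369, a relative of Zfp110, were not called in PD or RS. Zfp473 is among 5 genes whose interval differed between the deposited tables. Zfp366, a gene of dendritic cells, was at 0 in 7 of the 8 libraries.

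Genes of heterochromatin and DNA methylation were read from a list of 34, which also holds Ctcf and the zinc finger genes Zfp445, Zfp809, Zfp42 and Zfp37 of other chromosomes. Of the 31 tested, 11 rose and 3 fell in PD, beside 29.8% and 6.3% of all genes, and 8 rose and 2 fell in RS, beside 20.9% and 21.8%. Zfp42 and Zfp37 are among those that rose in PD, and Zfp445 among those that rose in RS. Trim28 stood at 114 and 135 FPKM in PD WT and 71.8 and 60.8 in RS WT, and neither it nor Setdb1 was called (adjusted p = 0.85 and 0.43 for Trim28, 0.59 and 0.068 for Setdb1, in PD and RS). Hdac2, a histone deacetylase of corepressor complexes, rose in RS from 7.32 and 5.73 FPKM to 15.6 and 18.0 (1.25 ± 0.15, adjusted p = 9.1e-05). Chd3, a remodeller of the NuRD complex that KRAB repression uses, fell from 8.49 and 9.32 FPKM to 4.82 and 5.23 in PD, and from 4.11 and 4.86 to 2.29 and 2.32 in RS. Mphosph8 and Fam208a, both of the HUSH silencing complex, rose in RS by 1.04 and 0.63. Pphln1 of the same complex was not called in RS (log2 change 0.05, adjusted p = 0.82). Dnmt3l, the cofactor of de novo DNA methylation, rose in PD from 0.175 and 0.380 FPKM to 1.66 and 1.07, and stood at 10.3 to 14.5 FPKM in all RS libraries.

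H3K36me3 peaks lay over 97 of the 173 genes in PD WT (56.1%, exact 95% interval 48.3% to 63.6%) and over 100 in RS WT (57.8%, 50.1% to 65.3%). The PD Setd2KO list had a peak over 1 of them. The RS Setd2KO list had peaks over 0 of 173, for which the exact 95% interval reaches 2.11%. Among other autosomal genes, the Setd2KO lists had a peak over 395 of 19351 in PD (2.04%) and 1067 in RS (5.51%). For Zfp genes on other autosomes the counts were 2 of 201 (0.995%) and 6 of 201 (2.99%). Peaks covered 897 kb of the 3158 kb of intervals of the 173 genes in PD WT and 996 kb in RS WT. The 1 Setd2KO peak over the 173 genes lay in Zfp536, at chr7:38315849-38316420, and spanned 572 bases. Its score by the authors was 56.9, near the lowest score of 50 in the lists. There is 1 list per group, so these counts have no replicate check, and intervals cover counting error only. A library depth for the ChIP samples is unknown from the peak lists.

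Expression sorted the genes with and without a peak. In PD WT the mark lay over 34 of 37 genes at 5 FPKM or more (91.9%), 44 of 55 at 1 to 5 FPKM (80%), 19 of 59 at 0.1 to 1 FPKM (32.2%) and 0 of 22 under 0.1 FPKM. Those shares resemble the 95.5%, 75.6%, 28.4% and 2.18% of other autosomal genes. In RS WT the mark lay over 27 of 32 genes at 5 FPKM or more, but also over 10 of 40 under 0.1 FPKM (25%, 12.7% to 41.2%), beside 5.08% of other autosomal genes in that class. Of the Zfp genes on other autosomes 6 of 41 in that class had a peak (14.6%, 5.57% to 29.2%), an interval that overlaps that of the 40. The 10 genes were Zfp109, Zfp111, Zfp146, Zfp229, Zfp383, Zfp606, Zfp790, Zfp84, Zfp871 and Zfp954, and 9 of them had a peak in PD WT too. These 10 read 0.344 to 2.25 FPKM in PD WT. Among genes of at least 0.3 FPKM in PD WT and under 0.1 in RS WT, a rule chosen after these values were seen, 10 of 15 had an RS WT peak (66.7%, 38.4% to 88.2%), beside 118 of 245 other autosomal genes (48.2%, 41.8% to 54.6%). These intervals overlap.

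**Figure D4:**
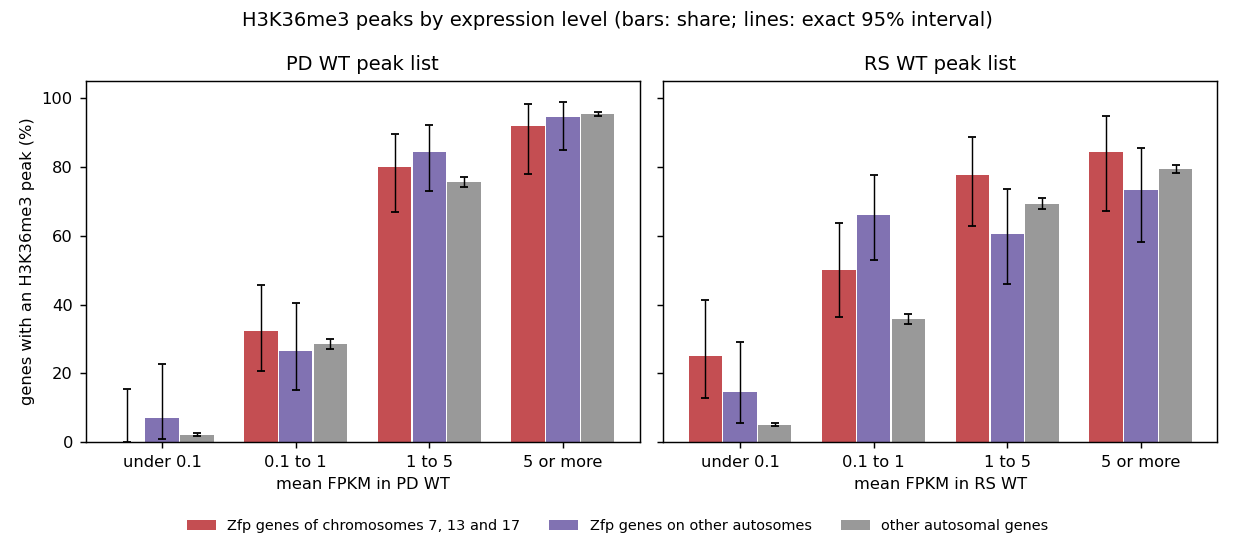
Share of genes with an H3K36me3 peak in PD WT (left) and RS WT (right) by mean FPKM in the same cells, for the 173 Zfp genes, the Zfp genes of other autosomes and all other autosomal genes, with bars for the share and lines for the exact 95% binomial interval. In RS WT the share of the Zfp genes under 0.1 FPKM is 25%, against 0% in PD WT.

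The WT lists of the 2 cell types shared 92 genes, with 5 marked in PD only, 8 in RS only and 68 in neither. Genes marked in PD only had a median of 1.36 FPKM in PD WT and 0.515 in RS WT, and those marked in RS only had 0.67 and 1.29 FPKM. Some strong changes of RNA went with little change of the peak. Zfp346 was covered over 100% of its length in both cell types although its FPKM differed as given above, and Zfp382 over 95.6% and 95.9%. Zfp318 ran the other way, its peaks spanning 12.0% of the gene in PD WT at 52.5 and 48.2 FPKM and 100% in RS WT at 13.1 and 15.6 FPKM. Zfp629 had peaks over 84.4% of the gene in PD WT at 2.22 and 2.52 FPKM and over 8.34% in RS WT at 9.79 and 9.69 FPKM. The presence of a peak in these lists is a threshold and not a level of the mark.

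Several genes that come on in spermatids carried no peak. At 5 FPKM or more in RS WT, Zfp57, Zfp72, Zfp428, Zfp87 and Zfp458 had none, and peaks spanned 6.11% of Zfp759. In that class a peak lay over 27 of 32 of the Zfp genes described (84.4%). The share was 79.4% for other autosomal genes and 73.3% for Zfp genes on other autosomes. Likewise in PD WT, Zfp955b, Zfp955a and Zfp820 had no peak at 5 FPKM or more. The first pair differ by a letter and may share reads and alignable sequence, as may Zfp607a and Zfp607b, Zfp119a and Zfp119b, Zfp729a and Zfp729b, and Zfp874a and Zfp874b, so their values and peaks are uncertain.

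Genes of at least 10 kb and 1 FPKM were cut into 10 equal bins from start to end, and cover was lowest in the first bin. In PD WT the mean cover of the first bin was 23.7% over 73 of the Zfp genes and 48.1% over 6280 other autosomal genes, and bin 9 had 66.2% and 72.3%. In RS WT the first bin had 32.0% over 58 of the Zfp genes against 45.9%, and bin 8 had 66.7% against 58.0%. Zfp genes on other autosomes had 33.2% in the first RS WT bin and 37.6% in the first PD WT bin. In bin 10 of PD WT the Zfp genes of chromosomes 7, 13 and 17 had 52.6% against 72.9% for other autosomal genes. These means are a description with no test.

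**Figure D5:**
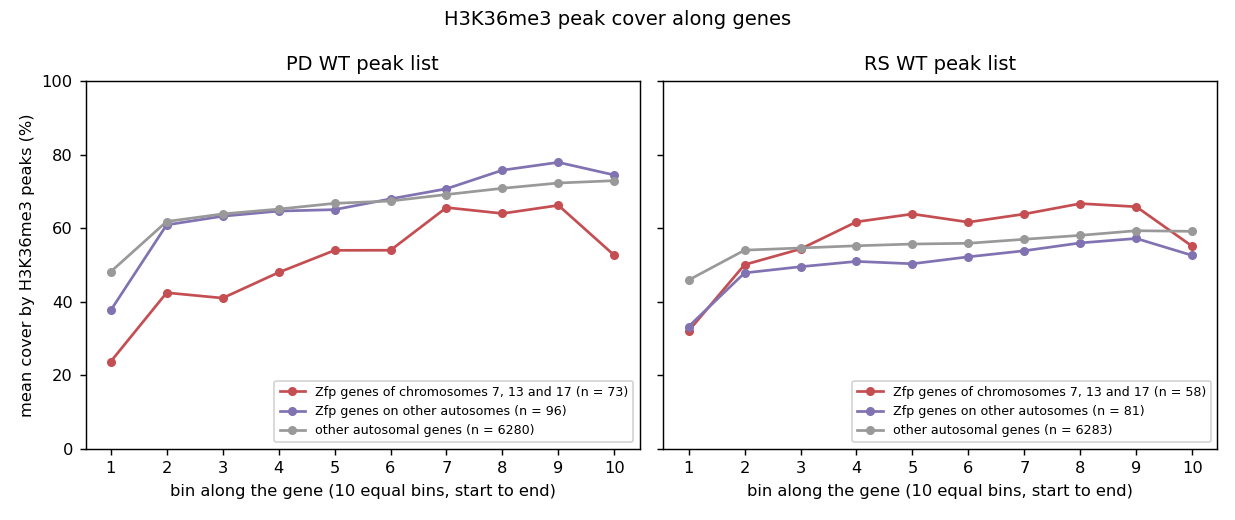
Mean percentage of each of 10 equal bins along the gene covered by H3K36me3 peaks, from start to end, in PD WT (left) and RS WT (right), for Zfp genes of chromosomes 7, 13 and 17, Zfp genes of other autosomes and other autosomal genes of at least 10 kb and 1 FPKM. The first bin is the least covered in all 3 sets, at 23.7% and 32.0% for the Zfp genes of chromosomes 7, 13 and 17.

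Calls in Setd2KO were then counted by WT cover. Of 55 tested genes covered over at least 50% in RS WT, 15 fell in Setd2KO (27.3%) and 7 rose (12.7%), beside 18.2% and 19.2% of other autosomal genes with such cover. Of 28 tested genes with no peak, 6 fell (21.4%) and 4 rose (14.3%), beside 29% and 24.1% of other genes. Zfp689, covered over 100% in both cell types, fell in both, while Zfp646, covered over 100% in both, was not called in either (adjusted p = 0.19 and 0.57). Zfp428 fell in RS with no peak in any list. In PD, 14 of 28 tested genes with no peak were called higher in Setd2KO (50%), beside 43.7% of other genes, and 7 of 51 with at least 50% cover (13.7%), beside 21.2%.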

How the data were processed

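RNA-seq values were used as deposited: the authors gave FPKM per gene and library in 4 tables of 2 libraries, and the submitters' processing notes name CASAVA, TopHat2, Cufflinks and Cuffdiff with build mm9. H3K36me3 was deposited as 1 peak list per group with a score per peak by the authors; the notes name CASAVA, Bowtie and bedtools, and versions are not given in the sources used here. The labels' protocols name a directional kit and spike-in chromatin; how strand was counted and whether peak lists were scaled by the spike-in are not given in the sources used here. Depth and read numbers were recovered from FPKM steps (tolerance 0.02 reads) for 156 of the 173 genes.

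A gene was fitted when any group mean reached 1 FPKM, as log2(FPKM + 1) in limma 3.58.1 (R 4.3.3) with an intensity trend and 1 mean per group over all 8 libraries, which leaves 4 residual degrees of freedom. Fold changes are on that scale, which understates changes of low genes. P-values were adjusted (Benjamini-Hochberg) over all 11452 genes tested in each contrast, called under 0.05, and refer to 0 on the deposited scale also where a change is printed relative to the all-gene median. On simulated data for PD at 2 libraries a group, 84 of 100 genes with a log2 change of 1 and 100 of 100 with a log2 change of 2 were called.

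A gene had a peak when at least 1 base of its interval was covered. Genes were named by rule: those of known function, the 6 largest called changes per direction and contrast, the 6 highest per cell type, and extremes of peak cover. The largest changes needed at least 2 FPKM in the higher group. Except for the difference between effects, they also needed libraries of the 2 groups that did not overlap. The members, gene lists and rules were chosen with earlier results of these data known. Alternatives tried were pseudocount, filters, scaling, a replicate block, leaving out each library, fits of 2 groups, no trend, subtraction of the spermatid share, and for peaks a cover of 50%, a score of 60 and genes widened by 1 kb. The main fit did not pair libraries by replicate number, and whether the numbers pair them is unknown here. Input libraries were not used here.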

Additional observations from a re-analysis of the deposited data

Results flagged for a closer look

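The Setd2KO effect differed between round spermatids and spermatocytes, by the interaction term of limma, for 34 of the 115 genes tested. Over all genes tested, 4015 of 11452 were called (35.1%), so the count is no trait of the Zfp genes. Of the 34, 18 are named here. Values are the effect in RS minus that in PD on the log2 scale, relative to the all-gene median. They were 1.20 for Zfp748, 0.96 for Zfp128, 0.91 for Zfp180 and 0.68 for Zfp758, and -1.63 for Zfp81, -0.92 for Zfp629, -0.91 for Zfp58, -0.88 for Zfp65, -0.88 for Zfp607a and -0.80 for Zfp850. The others were -0.69 for Zfp428, -0.68 for Zfp458, -0.61 for Zfp13, -0.58 for Zfp759, -0.56 for Zfp143, -0.48 for Zfp87, -0.43 for Zfp771 and -0.36 for Zfp568. Of these 8, the calls for Zfp428, Zfp458, Zfp759, Zfp87 and Zfp771 were lost without the first PD WT library, with adjusted p of 0.065, 0.098, 0.101, 0.14 and 0.073, and each of these 5 was also lost without other single libraries. That for Zfp13 was lost without the first RS WT library (adjusted p = 0.082) or the first RS Setd2KO library (adjusted p = 0.076). The call for Zfp758 (adjusted p = 0.037) was lost in 7 of the 8 fits that leave out 1 library, with adjusted p from 0.056 to 0.12, and kept only without the first PD WT library. Zfp58 rose in PD and fell in RS, and after subtraction of the spermatid share from the PD libraries the difference was still called lower.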

How the results depend on the processing

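Of 1604 values of named genes under other settings, 1490 kept their direction and side of the threshold, 95 lost the call, 16 gained it and 3 turned. All 3 turned after subtraction of the spermatid share, on the deposited log2 scale: Zfp57 in PD at -0.14 against 0.64, and the differences between effects of Zfp759 at 0.37 against -0.73 and of Zfp87 at 0.16 against -0.64. With a filter of 5 FPKM the counts were 12 higher and 3 lower in PD, 12 lower in RS, 18 higher and 25 lower for RS against PD in WT, 23 lower in Setd2KO, and 14 lower for the difference between effects, since fewer genes were tested. Quantile normalization gave 5 higher and 26 lower in PD, and 18 higher and 12 lower for the difference. Upper-quartile scaling gave 31 higher in RS, 40 higher for RS against PD in Setd2KO and 13 higher for the difference. A filter of 0.1 FPKM with a pseudocount of 0.1 gave 31 higher in RS and 8 higher for the difference. Subtraction of the spermatid share gave 13 higher in PD, and a fit of only the PD libraries 17 higher and 6 lower. The cause of these moves was not tested except where stated. Leaving out 1 library gave 17 to 38 higher and 6 to 17 lower in PD, 9 to 25 and 15 to 32 in RS, 29 to 32 and 60 to 69 for RS against PD in WT, 20 to 23 and 64 to 71 in Setd2KO, and 3 to 11 and 18 to 34 for the difference. With the lone library of a group assumed to vary like the others, these are fits with fewer degrees of freedom. A replicate block gave 29 higher and 11 lower in PD, 15 and 27 in RS, 31 and 66 for the WT step, 22 and 70 for the Setd2KO step, and 4 and 29 for the difference. Across genes, deviations of the first libraries from their group means correlated at -0.31 to 0.07 between groups. These values do not settle whether replicate numbers pair libraries by animal or batch. A cover of at least 50% left 53 genes in PD WT, 59 in RS WT and 0 in PD Setd2KO, and a score of at least 60 left 0 in PD Setd2KO.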

Other observations

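Zfp820 and Zfp939, chosen after their values were seen, differed widely between the PD WT libraries. Zfp820 read 12.3 FPKM in the first library and 4.59 in the second, and Zfp939 read 6.76 and 3.27. In PD Setd2KO they read 6.43 and 8.18, and 5.19 and 6.12 FPKM.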
